A study of Mus musculus with 4 samples.

Results

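A cluster of C2H2 zinc finger genes on mouse chromosome 4 held 519 of the 64095 enriched regions listed for 2 histone marks in mouse embryonic stem (ES) cells. The members were all regions of both lists that start between 145 and 147 Mb of chromosome 4 in the mm9 assembly, a window that contains Zfp600 and Gm13139. Of these, 313 were among the 32502 regions of H3K9me3 (0.963% of that list) and 206 among the 31593 regions of H3K36me3 (0.652%). The window was selected on the numbers of regions that the lists hold there, so these numbers and the bases they cover describe the choice and were given no test.

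The marks are the trimethylated lysines 9 and 36 of histone H3, mapped by chromatin immunoprecipitation and sequencing (ChIP-seq). There were 4 libraries, with 1 for each mark in wild-type (WT) ES cells and 1 for each mark in G34R ES cells, all labelled as strain 129S1/SvImJ. In G34R cells glycine 34 of H3.3, a variant of histone H3, is replaced by arginine, through a mutation targeted to 1 copy of H3f3a and expressed from the endogenous promoter after Cre excision of a wild-type cassette and a neo cassette. They retain a wild-type H3f3a allele and wild-type H3f3b, and the labels do not say how many clones were used. Each list pools WT and G34R cells and gives positions only, so a region stood out in WT cells, G34R cells or both, WT and G34R cells could not be set against each other, and neither the depth nor an error between replicates is known. Bases are said to carry both marks when they lie in both lists, so both marks in the same cells were not shown. The cell type could not be checked against its marker genes, because the lists hold no expression values.

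C2H2 zinc finger genes encode arrays of fingers, short protein modules that each hold a zinc ion and read a few bases of DNA. Many carry a KRAB domain as well, which recruits KAP1 and the methyltransferase SETDB1 and thereby H3K9me3 to transposons and other bound sites. The genes lie in clusters that grew by tandem duplication, and the fingers are usually encoded together in the last exon. H3K9me3 is known as a mark of silent chromatin, although the finger exons of this gene family carry it in many cell types. H3K36me3 is placed by SETD2, which travels with RNA polymerase II, and accumulates over the bodies of transcribed genes.

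The fingers under the marks were repeated sequence. A single finger with its linker takes 84 bases, and 147 of 150 distances between neighbouring fingers of the 15 zinc finger genes in the window were exactly 84 bases. In all, 69 complete units of 84 bases lay wholly under both marks, 68 in 11 of the zinc finger genes and 1 in 2610036A22Rik, which has only 2 fingers. Of these units, 44 contained the linker motif ACNGGNGANAANCC. Both marks covered 49.5% of all finger-coding bases of the zinc finger genes in the window. How often units outside both marks contain the motif is not given, so these counts do not set marked fingers apart from the others. The following 12 units, 1 with the motif from each of the 12 genes with units under both marks, are shown because they carry both marks and show how alike the fingers of different genes are. Each is written 5′ to 3′ on the coding strand of its gene from the mm9 assembly, with the linker motif in capitals.
Gm13225, chr4:145127228-145127311, plus strand: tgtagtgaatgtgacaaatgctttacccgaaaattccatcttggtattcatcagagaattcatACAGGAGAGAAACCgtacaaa
Gm13242, chr4:145291362-145291445, plus strand: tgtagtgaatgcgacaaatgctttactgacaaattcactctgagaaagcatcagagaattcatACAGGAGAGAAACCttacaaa
Gm13212, chr4:145212615-145212698, plus strand: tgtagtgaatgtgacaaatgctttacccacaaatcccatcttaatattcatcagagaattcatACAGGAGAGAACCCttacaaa
2610036A22Rik, chr4:145540012-145540095, minus strand: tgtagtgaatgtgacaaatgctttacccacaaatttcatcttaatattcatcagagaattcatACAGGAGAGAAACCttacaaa
Gm13247, chr4:145660616-145660699, minus strand: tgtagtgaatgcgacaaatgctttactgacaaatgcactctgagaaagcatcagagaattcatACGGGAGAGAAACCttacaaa
Gm13251, chr4:145731241-145731324, minus strand: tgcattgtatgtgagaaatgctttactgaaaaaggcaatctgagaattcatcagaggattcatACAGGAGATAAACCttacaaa
Rex2, chr4:145887575-145887658, plus strand: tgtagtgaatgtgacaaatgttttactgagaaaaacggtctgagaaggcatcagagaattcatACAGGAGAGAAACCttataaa
Zfp600, chr4:146163845-146163928, plus strand: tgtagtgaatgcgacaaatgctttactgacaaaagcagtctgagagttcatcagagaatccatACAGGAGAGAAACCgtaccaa
Gm13138, chr4:146432930-146433013, plus strand: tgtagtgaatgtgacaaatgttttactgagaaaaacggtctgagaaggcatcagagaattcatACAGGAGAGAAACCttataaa
Gm13139, chr4:146553000-146553083, plus strand: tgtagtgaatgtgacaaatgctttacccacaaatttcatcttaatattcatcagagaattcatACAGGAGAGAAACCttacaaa
Gm13145, chr4:146764881-146764964, plus strand: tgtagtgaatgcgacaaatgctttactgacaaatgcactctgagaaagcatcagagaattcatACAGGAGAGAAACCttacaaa
Gm13154, chr4:146957839-146957922, plus strand: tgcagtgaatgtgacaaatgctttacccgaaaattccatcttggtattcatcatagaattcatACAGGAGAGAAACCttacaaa

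The 66 pairs of these units were 78.6% to 100% identical, with a median of 84.5%. The units of Rex2 and Gm13138 were identical, as were those of 2610036A22Rik and Gm13139. Rex2 and Gm13138 are separate genes in the annotation of mm9, but both names match the single gene Rex2 in RefSeq. Zfp600 and Gm13139 shared 69 of the 84 bases (82.1%). Counted from base 1 at the 5′ end, 31 of the 84 positions varied among the 12 units, with 8 in bases 1 to 28, 15 in bases 29 to 56, where a finger has most of the residues that contact DNA, and 8 in bases 57 to 84. The units were picked for the linker motif, whose fixed bases lie in the last of these stretches and could not vary, which lowers the count there and raises the identity. With up to 2 mismatches, the central 50 bases of each unit had between 5 copies (Rex2 and Gm13138) and 30 copies (Gm13212) in the assembly. The motif, searched on both strands, was present in 3.19% of the 200 bp bins of the window with both marks, in 1.70% of all genic bins of the window and in 0.0660% of genic bins elsewhere. Among bins with both marks outside the window, 1.06% had it.

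Most of the H3K36me3 bases in the cluster were also in the H3K9me3 list, although not necessarily from the same cells. H3K9me3 regions covered 522.8 kb, H3K36me3 regions covered 298.4 kb, and 256.8 kb were covered by both. Thus 86.1% of the H3K36me3 bases in the window were also H3K9me3 bases, against 5.59% in the remainder of the H3K36me3 list. Shares elsewhere varied widely. The 8 other tiles among the 10 tiles of 1 Mb with the most bases in both marks had shares from 17.9% (chr4:147000001-148000000, next to the window) to 100% (chr1:85000001-86000000 and chrX:166000001-167000000), and 99.1% of the H3K36me3 bases were shared in chr8:19000001-20000000. In the other direction, 49.1% of the H3K9me3 bases were also H3K36me3 bases, against 8.76% in the remainder of the H3K9me3 list. H3K9me3 alone covered 266.0 kb and H3K36me3 alone covered 41.6 kb. The overlap is a measure within the window that the choice of the window did not set directly, but dense lists overlap more readily, and no test of it was made. The authors name no input control for the lists, and how much of the overlap rests on background reads or copied sequence was not tested.

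Counted as regions, 184 of 206 H3K36me3 regions (89.3%) touched an H3K9me3 region, and 133 of them (64.6% of all 206) lay wholly inside H3K9me3. Outside the window 8.54% touched and 3.64% lay wholly inside. Of the 313 H3K9me3 regions, 148 (47.3%) touched H3K36me3, and 52 (16.6%) lay wholly inside it, against 8.01% and 3.68% elsewhere. With an overlap of at least 50% of both regions, 98 pairs were left, which is 47.6% of the H3K36me3 and 31.3% of the H3K9me3 regions. In the remainder of the lists the shares were 3.07% and 2.99%.

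Of the 6102 genic 200 bp bins of the window that were free of unknown bases, 42.8% were in H3K9me3, 24.5% in H3K36me3 and 21.0% in both. The corresponding shares of the 5291359 genic bins of the genome were 3.43%, 5.33% and 0.32%. Genes covered 1264 kb of the window (63.2%), and 200 kb of it are unknown bases in the assembly. All but 1346 bp of H3K9me3 and 462 bp of H3K36me3 lay in annotated genes, because bins were required to overlap a gene when the lists were made. When the genome was cut into tiles of 1 Mb, the second Mb of the window ranked first by bases with both marks (148.4 kb) and the first Mb had rank 3 (108.4 kb) among 1541 tiles with H3K36me3.

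Single H3K36me3 regions were of ordinary width, and H3K9me3 regions were somewhat wider than elsewhere. The median H3K9me3 region of the window was 1000 bp wide (quartiles 600 and 1600 bp), against 800 bp (600 and 1200 bp) elsewhere, and the median H3K36me3 region was 1000 bp wide (800 and 1800 bp), against 1000 bp (600 and 2000 bp) elsewhere. At the minimum width of both lists, 600 bp, were 85 of the 313 H3K9me3 regions, against 13993 of 32189 elsewhere. For H3K36me3 it was 51 of 206 regions, against 8483 of 31387 elsewhere. H3K9me3 regions were close together, with a median gap of 800 bp against 10000 bp in the whole list. For H3K36me3 the median gap was 1000 bp in the window and 1200 bp in the whole list. The median gap of this mark thus differed little, although it was on a larger share of the genic bins in the window.

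The widest H3K9me3 region took 26.6 kb at chr4:146842201-146868800, from the noncoding gene Gm16889 into Gm13152. The next ones were chr4:146546401-146566800 (20.4 kb, over the end of Gm13139), chr4:146639801-146651600 (11.8 kb, in noncoding genes), chr4:145226001-145234600 (8.6 kb, Gm13242) and chr4:145727601-145735200 (7.6 kb, Gm13251). The widest H3K36me3 region was chr4:145023201-145030400 (7.2 kb, in the noncoding gene Gm13227), followed by chr4:145739401-145746000 (6.6 kb, Gm13251) and chr4:145268801-145274400 (5.6 kb, Gm13242). Both marks shared 200 stretches with a median length of 800 bp. The longest shared stretch was the whole of the widest H3K36me3 region. Behind it came chr4:145268801-145274200 (5.4 kb, Gm13242) and 3 stretches of 5.2 kb, namely chr4:145659801-145665000 in Gm13247, chr4:146132401-146137600 in Zfp600 and chr4:146845401-146850600 in Gm16889.

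The limits of the window were sharper on its left side. The first H3K9me3 region was chr4:145001001-145002200 and the last before the window ended at 144905000. The first H3K36me3 region was chr4:145001601-145002800, and the last before it ended at 144809400. On the right side both lists went on across the limit. There the last H3K9me3 region was chr4:146997401-146998800 and the next chr4:147002601-147004800, while the last H3K36me3 region was chr4:146990601-146991800 and the next chr4:147003401-147004000. The gene 2610305D13Rik spans this limit, and its own values below are those of the 14 kb inside the window, whereas its start lies outside.

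**Figure D1:**
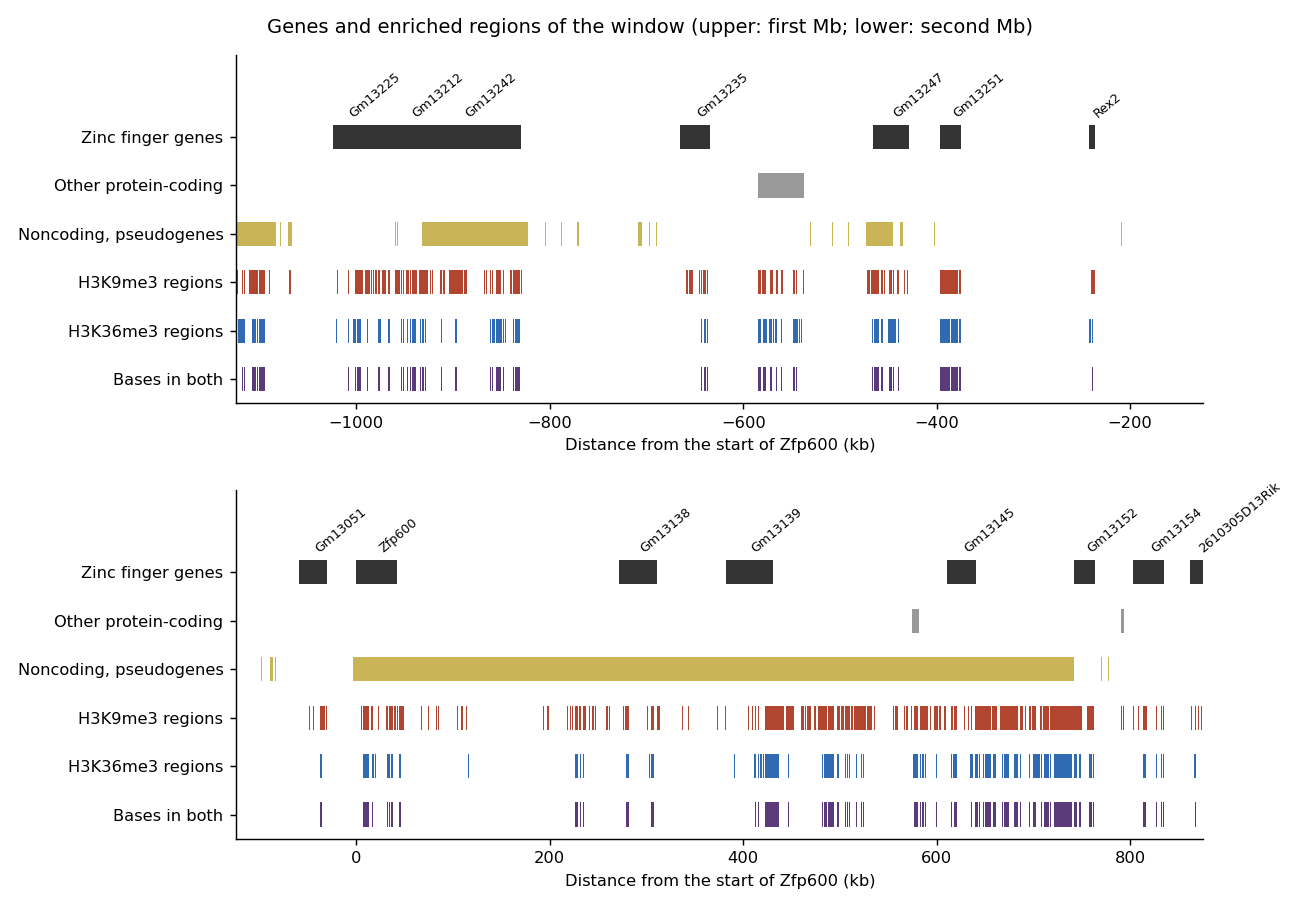
Genes and enriched regions across the window, drawn in 2 rows of 1 Mb; the horizontal axis is the distance from the start of Zfp600 in kb, and each block is a gene, an enriched region or a stretch of bases in both lists. Almost every block of H3K36me3 sits over a block of H3K9me3, 256.8 of 298.4 kb, and 1346 bp of H3K9me3 and 462 bp of H3K36me3 lie outside the genes.

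The window held 78 annotated genes. Most have only provisional names in the annotation of mm9. Of the 19 protein-coding gene models, 15 matched a gene of RefSeq by symbol or synonym, and 12 of these now have another symbol there, such as Zfp991 for Gm13139, Zfp980 for Gm13242, Zfp992 for Gm13251, Zfp981 for Gm13247 and Zfp979 for 2610305D13Rik, which is also known as Ssm1b, a strain-specific modifier of transgene methylation. Of these, 15 were protein-coding with at least 3 C2H2 fingers and are called zinc finger genes here. There were 4 other protein-coding gene models, 14 noncoding genes and 45 pseudogenes. All 15 zinc finger genes carried H3K9me3, H3K36me3 and bases with both marks. Among all 22367 protein-coding genes, 40.2% carried H3K9me3, 34% carried H3K36me3 and 12.1% carried both. Of the 554 zinc finger genes elsewhere, 47.3% carried H3K9me3, 46.9% H3K36me3 and 23.3% both, and 17.9% had bases with both marks. The 118 zinc finger genes of chromosome 7 gave 45.8%, 52.5%, 28.0% and 22.9% for the same measures. The zinc finger genes of the window were longer (median 31.9 kb against 15.2 kb elsewhere), and a longer gene has more room to touch a region.

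Measured over gene bodies, which does not reward length in this way, H3K9me3 covered 44.5% of the zinc finger genes of the window, H3K36me3 covered 28.3% and both covered 24.0%. These values take 2610305D13Rik at its whole length, and inside the window alone they were 43.1%, 29.1% and 24.4%. Elsewhere the zinc finger genes had 5.56%, 6.78% and 1.17%. On chromosome 7 they had 8.31%, 11.9% and 2.29%. Zinc finger genes elsewhere had slightly more H3K36me3 than H3K9me3, and the order was the opposite in the window. Of the H3K36me3 bases in zinc finger genes, 84.9% were shared with H3K9me3 in the genes of the window and 17.3% elsewhere.

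Of the members, 156 H3K9me3 regions (49.8%) and 107 H3K36me3 regions (51.9%) touched a zinc finger gene. The bodies of these genes took 43.2% of the genic bases of the window. Of the regions outside the window, 2.79% for H3K9me3 and 2.64% for H3K36me3 touched a zinc finger gene. Another 20 regions of each mark touched only other protein-coding genes, and 137 and 79 regions, respectively, lay only in noncoding genes or pseudogenes. These were 43.8% and 38.3% of the members, while 52.3% of the genic bases of the window lay outside protein-coding genes. Of the regions outside the window, 6.17% for H3K9me3 and 0.742% for H3K36me3 lay only in such genes. Of the 14 noncoding genes, 11 carried H3K9me3 and 10 carried H3K36me3. Of the 45 pseudogenes, 20 carried H3K9me3 and 3 carried H3K36me3. Among all 9705 noncoding genes the shares were 14.2% and 9.61%, and among all 5201 pseudogenes 3.38% and 1.79%. The noncoding genes of the window were long, with a median of 28.1 kb against 0.162 kb in the genome, and its pseudogenes were short (0.643 against 0.649 kb), so that the classes cannot be compared by such counts. The 3 noncoding genes with the most bases in either mark are described here. Gm16889 (474 kb, minus strand) held 114 H3K9me3 and 87 H3K36me3 regions, with 111.4 kb in both marks. Gm17317 (320.7 kb, plus strand) lies across it and held 89 and 71 regions, with 79.6 kb in both. Gm17452 (278 kb, minus strand) runs antisense over Zfp600 and held 51 and 16 regions, with 17.6 kb in both. Gm17609, which overlaps Gm13242 on the opposite strand, had fewer bases in H3K9me3 (47.7 against 55 kb) but more in both (21.8 kb). These genes overlap each other and several zinc finger genes, so the same region is counted in each of them, and ChIP-seq has no strand by which to assign it.

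Among the protein-coding genes, Gm13242 carried the most bases of each mark and of both. The gene is annotated at chr4:145104787-145294344 on the plus strand, spans 189.6 kb and contains Gm13212 and most of Gm13225, so that their regions are counted in it as well. It held 56 H3K9me3 regions over 93.6 kb, 36 H3K36me3 regions over 47.2 kb, and 41.8 kb with both. Per base the coverage was 49.4% for H3K9me3 and 24.9% for H3K36me3. Gm13212 (chr4:145175069-145215248, 20 fingers, the most in the window) had 16 H3K9me3 and 11 H3K36me3 regions over 23.0 and 12.8 kb. Of its H3K36me3 bases, 96.9% were shared.

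Gm13251 (chr4:145727747-145749016, minus strand, 11 fingers) was the most completely marked protein-coding gene. H3K9me3 covered 93.4% of its 21.3 kb and H3K36me3 88.7%, each in 5 regions, and 18.5 kb carried both marks. Its neighbour Gm13247 (chr4:145658647-145696012, minus strand, 7 fingers) had 15 H3K9me3 regions over 20.2 kb and 12 H3K36me3 regions over 18.6 kb, with 13.8 kb in both. Here both marks covered about the same length of the gene (54.1% and 49.8%) but were not everywhere in the same place, and 74.2% of the H3K36me3 bases were shared.

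Zfp600 (chr4:146124225-146166156, plus strand, 17 fingers) carried 13 H3K9me3 regions over 17 kb and 8 H3K36me3 regions over 14.2 kb. Both marks shared 11.6 kb, which was 81.7% of its H3K36me3 and 68.2% of its H3K9me3. Gm13139 (chr4:146506147-146554688, plus strand, 11 fingers) carried 9 H3K9me3 regions over 13.7 kb and 11 H3K36me3 regions over 13 kb, with 10.2 kb in both. The wide H3K9me3 region at its end runs 12.1 kb past the last base of the gene. 2610036A22Rik (chr4:145539879-145587078, minus strand) codes for only 2 fingers and is therefore counted among the other protein-coding genes. It carried 15 H3K9me3 regions over 18.4 kb, 16 H3K36me3 regions over 17.6 kb and 12.2 kb in both.

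The remaining zinc finger genes ranged widely. Gm13051 (14 fingers) was the least marked, with 22.5% of its length in H3K9me3 and 7.50% in H3K36me3. Gm13235 (5 fingers) had 33.4% and 14.1%, and only 54.5% of its H3K36me3 was shared, the lowest share of any zinc finger gene in the window. Rex2 and Gm13225 were the zinc finger genes with more H3K36me3 than H3K9me3, with 62.1% against 46.8% in Rex2 and 30.2% against 26.3% in Gm13225. Gm13152 had 64.9% and 46.5%, Gm13145 37.0% and 28.3%, Gm13154 34.2% and 22.6%, and Gm13138 26.2% and 21.1%. The part of 2610305D13Rik inside the window had 33.0% and 12.9%. Among the other protein-coding models, Gm13151 carried both marks (58.3% and 52.5%), Gm16503 carried H3K9me3 alone (55.1%), and another model named Gm13151, of only 63 bp, carried neither.

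**Figure D2:**
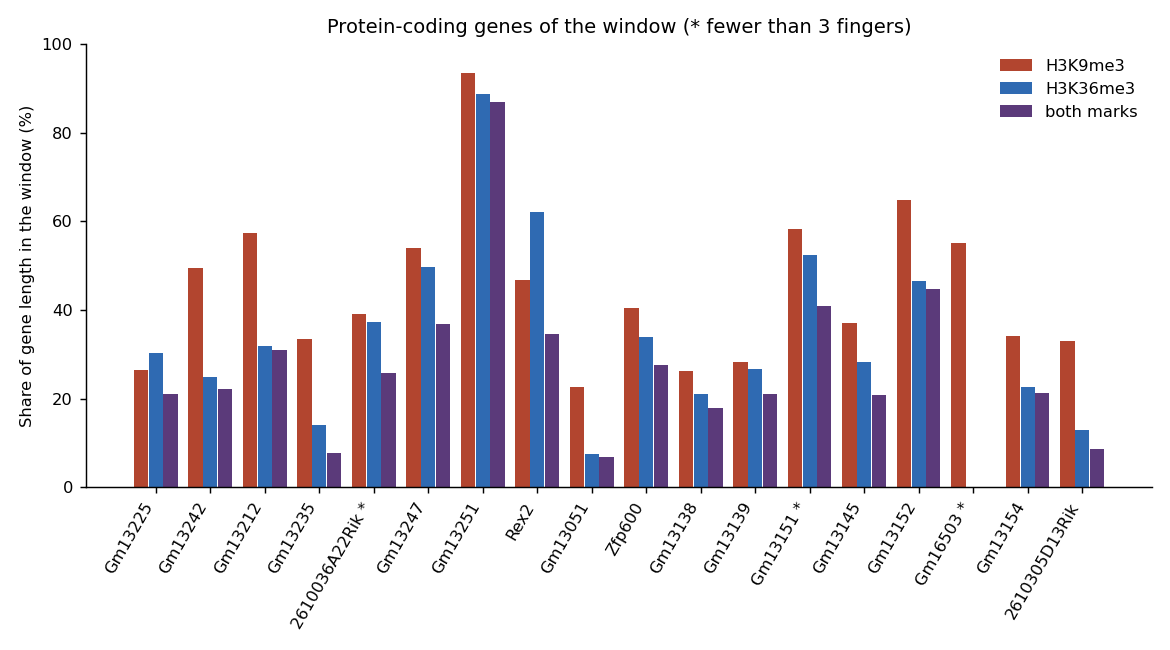
Share of the length of each marked protein-coding gene inside the window, in percent, covered by H3K9me3, H3K36me3 and both, in the order of the genes along the chromosome; a star marks genes with fewer than 3 fingers. Gm13251 stands at 93.4% and 88.7% and Gm13051 at 22.5% and 7.50%, and Rex2 and Gm13225 are the genes where the H3K36me3 bar is the taller.

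Over all bins, the fingers were marked more often than the average base of these genes. Of the finger-coding bins, only 5 had sequence with 1 copy, too few to order the classes, and 40% of them were in each mark. Of the intron bins with 1 copy, from all genes of the window, 69.9% were in H3K9me3 and 52.7% in H3K36me3. The 15 genes have 10.4 kb of finger-coding sequence, of which 62.7% was in H3K9me3 and 49.5% in H3K36me3. Every H3K36me3 base on a finger in the window was also an H3K9me3 base. In zinc finger genes elsewhere this held for 27.5% of the H3K36me3 bases on fingers, and 19.8% of finger-coding bases were in H3K9me3 and 30.9% in H3K36me3, so that H3K36me3 was the more common mark on fingers there. Finger bases of 13 genes touched H3K9me3 and those of 12 touched H3K36me3. In 5 genes the fingers were wholly covered by H3K9me3 and in 4 by H3K36me3. Of the 554 zinc finger genes elsewhere, 140 (25.3%) had finger bases in H3K9me3 and 221 (39.9%) in H3K36me3, and the fingers were wholly covered in 55 and 102.

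In all 15 genes the finger exon contained the last base of the gene, and it was marked by H3K9me3 in each of them. The median finger exon had 63.7% of its bases in H3K9me3 and 35.3% in H3K36me3. The finger exon of Gm13139 (chr4:146552434-146554688) lay wholly in H3K9me3 and to 96.1% in H3K36me3. Those of Gm13225 (chr4:145126494-145129091) and Gm13251 (chr4:145727747-145732058) were covered to a similar degree, with 100% in H3K9me3 and 96.5% and 95.4% in H3K36me3. In Zfp600 the exon (chr4:146162367-146166156) had 43.1% and 22.0%, split over 3 H3K9me3 and 2 H3K36me3 regions. More than 50% of the exon was in H3K9me3 in 10 genes and in H3K36me3 in 7. Of the finger exons of the 554 zinc finger genes elsewhere, 26.4% had bases in H3K9me3 and 39.4% in H3K36me3, and more than 50% of the exon was covered in 15.7% and 22.0%. The median finger exon elsewhere had 0% of its bases in each mark, and 73.3% of these exons contained the last base of the gene. The finger exons of Gm13051, Gm13235 and 2610305D13Rik had no base in H3K36me3, although all 3 genes had this mark further upstream.

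The coverage was not centred on the fingers. Along the 15 genes, aligned at the first finger-coding base, H3K9me3 reached a mean coverage of 92.9% and H3K36me3 of 75.8% in the 500 bases from 1000 to 500 bp upstream. From the first finger-coding base to 500 bp downstream, a stretch that runs past the fingers in some genes, they covered 49.2% and 42.8%, and from 1000 to 1500 bp downstream they stood at 73.4% and 58.6%. A further maximum of H3K36me3, 75.2%, lay 4500 to 4000 bp upstream, where H3K9me3 had 64.2%. The difference between the marks varied with the distance from the fingers. From 6000 to 5500 bp upstream H3K36me3 was the higher, with 51.7% against 40.1% for H3K9me3. At 9500 to 9000 bp upstream H3K9me3 had 14.5% and H3K36me3 had 10.7%. At 8000 to 7500 bp upstream H3K9me3 had 37.8% and H3K36me3 had 10.6%. At 5000 to 5500 bp downstream of the first finger base H3K9me3 had 20.5% and H3K36me3 had 6.67%, and at 9500 to 10000 bp they had 30.9% and 7.55%. The finger exons end the genes and were at most 4312 bp long, so stretches this far downstream of them lie past the gene. In Rex2 the finger exon starts 4.70 kb from the gene start, so stretches further upstream lie before the gene. The lists hold genic bins only, so coverage there depends on other annotated genes. In the 554 zinc finger genes elsewhere the maximum of both marks was in the same 500 bp, with 18.9% for H3K9me3, 32.2% for H3K36me3 and 7.75% for both.

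**Figure D3:**
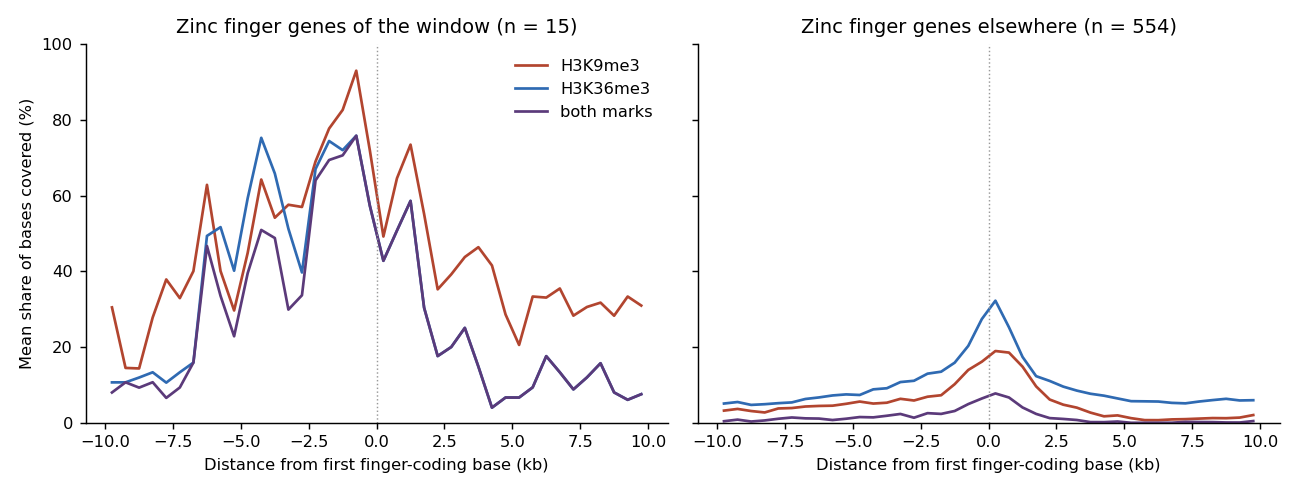
Mean share of bases covered, in percent, in steps of 500 bp within 10 kb of the first finger-coding base and in the direction of transcription, for the 15 zinc finger genes of the window and the 554 elsewhere. Stretches before the start or past the end of a gene are included. In the window the lines are highest just upstream of the fingers (92.9% and 75.8%), and elsewhere they are highest in the 500 bp from the first finger-coding base on (18.9% and 32.2%).

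Most of the marked bins were intronic. Each genic bin was put into the first class that applied: at most 1 kb from a protein-coding gene's start, finger-coding sequence, other coding sequence, untranslated region, other exon, or intron. Introns held 85.7% of the H3K9me3 bins and 87.5% of the H3K36me3 bins, and they made up 85.7% of the genic bins of the window. These values of the window take in all its genes, noncoding ones included. In all genic bins outside the window, introns held 73.2% of H3K9me3 and 61.7% of H3K36me3 bins with 86.3% of the genic bins. In zinc finger genes alone elsewhere, introns held 62.5% of H3K9me3 and 53.3% of H3K36me3 bins with 81.7% of the genic bins. Of the intron bins of the window, 42.9% were in H3K9me3 and 25% in H3K36me3. The shares were 2.87% and 3.79% in all intron bins outside the window, and 4.27% and 4.42% in zinc finger genes elsewhere.

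By class, the highest coverage in the window was on other coding sequence, with 64.6% of 99 bins in H3K9me3 and 57.6% in H3K36me3, and on finger-coding sequence, with 62.4% and 49.4% of 85 bins. Untranslated regions had 50.4% and 28.6% of 119 bins. The lowest coverage by H3K9me3 was near gene starts, with 32.7% of 153 bins, where H3K36me3 had 13.7%. Other exons, chiefly those of noncoding genes and pseudogenes, had 34.8% in H3K9me3 but 7.64% in H3K36me3. Near gene starts 61.9% of the H3K36me3 bins were in both lists, the lowest share of the classes, against 71.9% on other exons, 100% on finger-coding sequence and 93.0% on other coding sequence. Within 1 kb of their own start, 7 of the 15 zinc finger genes had H3K9me3 and 6 had H3K36me3, and both counts include 2610305D13Rik, whose start is outside the window. Elsewhere 18.8% and 3.25% of zinc finger genes did.

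**Figure D4:**
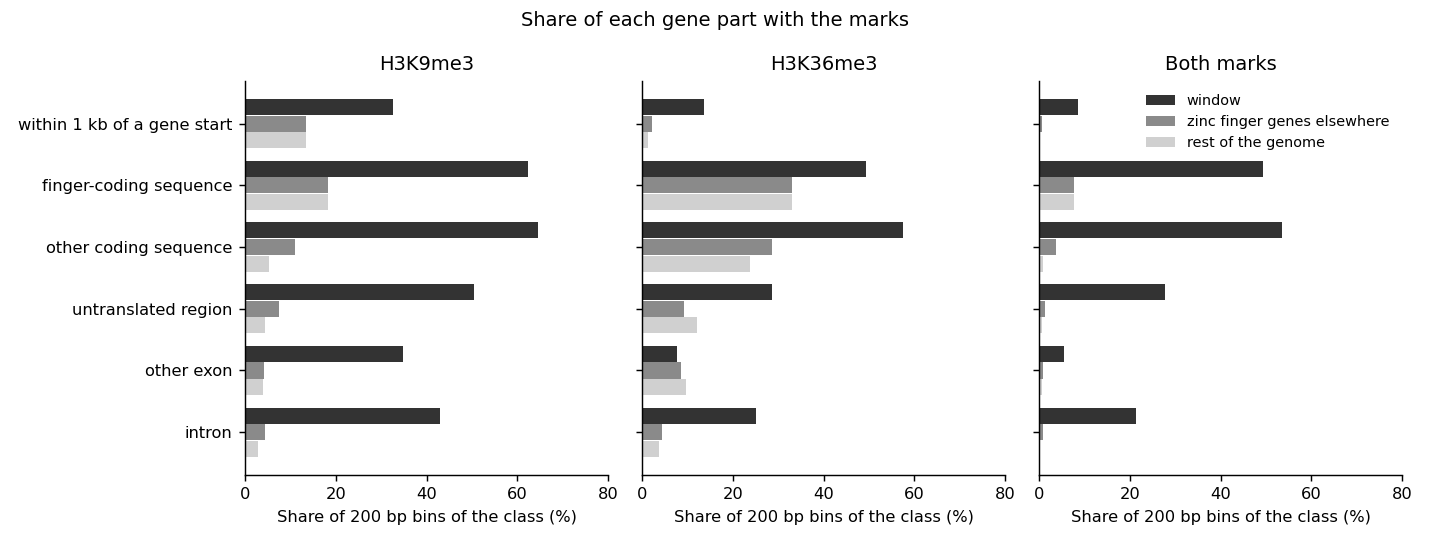
Share of the 200 bp bins of each class, in percent, that carry H3K9me3, H3K36me3 and both, in all genic bins of the window, in zinc finger genes elsewhere and in all genic bins outside the window. The bars of the window exceed the others in every class except H3K36me3 on other exons (7.64% against 8.63% and 9.55%).

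The base composition of the stretches differed little, and CpG sites differed more. Bases with both marks were 39.0% G+C with 6.07 CpG per kb. Bases with H3K9me3 alone were 41.4% G+C with 10.1 CpG per kb, and those with H3K36me3 alone 37.6% with 3.70. Genic bases with neither mark were 40.02% G+C with 7.34 CpG per kb.

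Because the cluster is made of copied sequence, the copies of each bin were counted. A copy was any place in the assembly, on either strand, that matched the central 50 bases of a bin, the length of a read, with at most 2 mismatches. The aligner had kept reads with up to 5 alignments. Of the genic bins of the window, 10.6% had 1 copy, 31.7% had 2 to 5 and 57.7% had more than 5, and the median was 6 copies. Elsewhere 12.0% of genic bins were copied, meaning that they had more than 1 copy, against 89.4% in the window. The assembly is that of the reference mouse strain, and the cells were labelled 129S1/SvImJ, so the copies in the genome of the cells may differ in number and sequence, and this was not tested.

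Marked bins were copied less than unmarked bins of the same window. The share with more than 1 copy was 94.6% of the 3281 bins with neither mark, 83.3% of the 2613 H3K9me3 bins, 78.4% of the 1492 H3K36me3 bins and 77.6% of the 1284 bins with both. All were far above bins of the lists elsewhere, which were copied in 12.5% of H3K9me3 and 4.28% of H3K36me3 bins, and in 20.4% and 11.6% in zinc finger genes. Finger-coding bins of the window were copied in 94.1% and had a median of 11 copies. With more than 5 copies at their centre, 44.3% of the H3K9me3 and 38.8% of the H3K36me3 bins of the window lay beyond the limit of the aligner at that point, although a bin of 200 bp can hold other bases with fewer copies. These shares allow up to 2 mismatches. Counting exact copies only, 11.7% and 9.38% had more than 5.

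The more copies a bin had, the less often it was marked. H3K9me3 was on 67.4% of the 647 bins with 1 copy, on 52.7% of the 1932 bins with 2 to 5 copies and on 32.9% of the 3523 bins with more than 5. For H3K36me3 the shares were 49.8%, 30.6% and 16.4%. Both marks were on 44.5%, 26.7% and 13.6%. Of the H3K36me3 bins with 1 copy, 89.4% also had H3K9me3, and with more than 5 copies 82.9% did. In the other direction, the share of H3K9me3 bins that also had H3K36me3 was 66.1% with 1 copy, 50.6% with 2 to 5 and 41.5% with more than 5. Reads from sequence with more than 5 copies were dropped before the lists were made, and the part of this in the lower coverage was not tested.

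**Figure D5:**
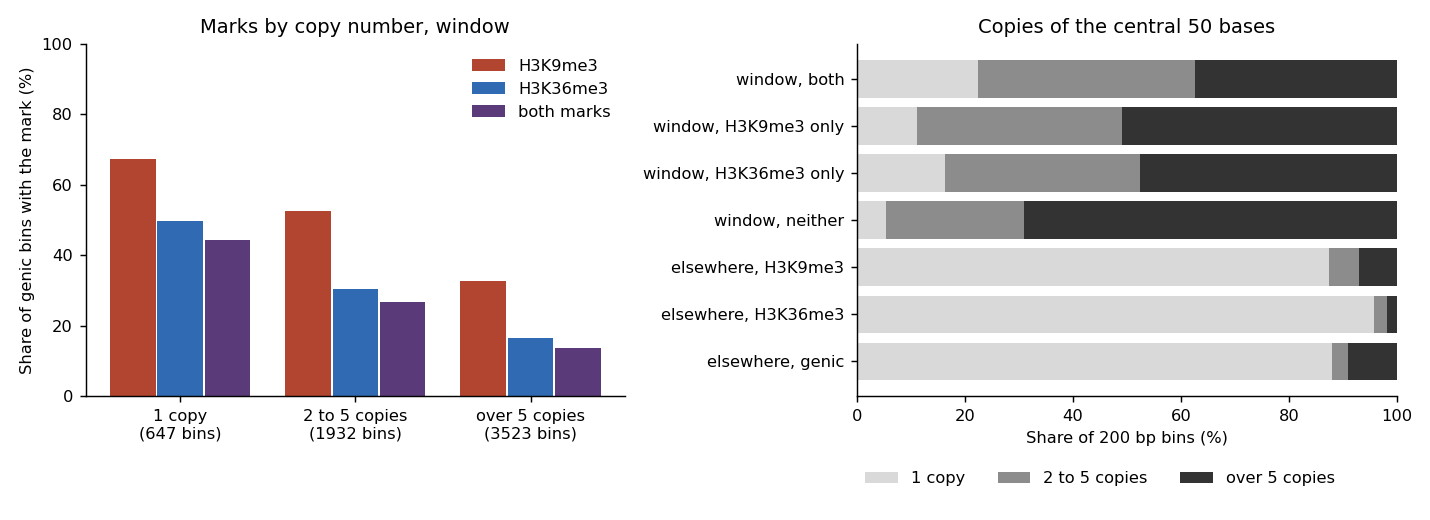
Left, share of the genic bins of the window, in percent, with H3K9me3, H3K36me3 and both, by the number of copies of the central 50 bases; right, share of bins with 1, 2 to 5 and over 5 copies in classes of bins inside and outside the window. The bars on the left go from 67.4%, 49.8% and 44.5% with 1 copy to 32.9%, 16.4% and 13.6% with over 5 copies, and bins of the window are copied more than those of the lists elsewhere whatever their marks.

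Unique sequence under both marks is shown for 3 of the long shared stretches, since reads from it have 1 place in the assembly. The 50 bases are the centre of a 200 bp bin in an intron of the gene and are written on the plus strand.
Gm13242, chr4:145270276-145270325, in the shared stretch of 5.4 kb: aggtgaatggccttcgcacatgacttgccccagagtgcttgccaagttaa
Zfp600, chr4:146134876-146134925, in the shared stretch of 5.2 kb: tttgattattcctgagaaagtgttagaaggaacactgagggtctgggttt
Gm13251, chr4:145739476-145739525, in the shared stretch of 4.8 kb: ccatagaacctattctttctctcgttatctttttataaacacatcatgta

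These stretches differed in how much of them was unique. In the stretch of Gm13251, 19 of 24 bins had 1 copy. In that of Gm13242 it was 4 of 27 and in that of Zfp600 1 of 26. The stretch of 5.2 kb in Gm13247 had 19 of 26. Over whole genes, all 20 unique bins of Gm13251 carried both marks. Gm13247 had 67 unique bins, of which 49 carried H3K9me3, 54 H3K36me3 and 40 both, and Gm13152 had 38, of which 29 carried both. Gm13242 had 142 unique bins, with 93 in H3K9me3, 44 in H3K36me3 and 39 in both. Zfp600 and Gm13139 had 6 unique bins each, of which 2 and 1 carried both marks. Rex2 and Gm13138 had none, so every region in these genes lies on sequence whose reads could also have come from another place.

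The copies were often other parts of the same cluster. Of the 1932 genic bins with 2 to 5 copies, 1076 (55.7%) had all copies in the window and 208 (10.8%) had all other copies outside it. Counting such bins between protein-coding genes, Gm13139 and 2610036A22Rik had the most in common. Of the 244 bins of Gm13139, 159 (65.2%) had 2 to 5 copies and one of them in 2610036A22Rik, which also had the finger unit identical to that of Gm13139. Of the 108 bins of Gm13251, 58 (53.7%) had a copy in Gm13139. Of the 210 bins of Zfp600, 30 had a copy in Gm13138 and 23 in Gm13242. This count leaves out bins with more than 5 copies and so undercounts pairs such as Rex2 and Gm13138, where the 2 H3K9me3 and 4 H3K36me3 regions of Rex2 matched Gm13138 with 100% identity over their whole length.

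Copies of a bin did not always carry the same mark. Among 165 bins with exactly 1 other copy, which lay in another genic bin of the window, the median distance between the copies was 1102.6 kb. Of the 91 such bins in H3K9me3, 63 (69.2%) had a copy in H3K9me3, and of the 74 bins without it, 36 (48.6%) did. For H3K36me3 it was 43 of 67 (64.2%) and 31 of 98 (31.6%). Since reads of copied sequence can be placed at either copy, the copies are not independent of each other.

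Whole regions were compared in the same way. In a search of each member against the remainder of the window with blastn, 247 of 313 H3K9me3 regions (78.9%) and 150 of 206 H3K36me3 regions (72.8%) had another place that matched at least 80% of the region with at least 90% identity. The median identity of the best place was 98.6% and 98.5%. The lists were limited to bins in UCSC genes, and the places were classed here by GENCODE genes. Outside all GENCODE genes lay 87 of the places of H3K9me3 regions and 46 of those of H3K36me3 regions, and 0 of them touched the list of the mark. Of the places that lay wholly in GENCODE genes, 103 of 141 (73.0%) touched the list of H3K9me3 and 65 of 95 (68.4%) that of H3K36me3. The other 38 and 30 genic places had no base in the list of the same mark.

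The following sets of copies show both outcomes. Capitals mark a base that differs from the other copies in the first set, and from the first sequence in the pair. All are intronic and are written on the plus strand, which is also the coding strand of the 4 genes. The first set carried both marks at every copy.
Gm13225, chr4:145123515-145123564, both marks: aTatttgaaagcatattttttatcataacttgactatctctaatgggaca
Gm13235, chr4:145485076-145485125, both marks: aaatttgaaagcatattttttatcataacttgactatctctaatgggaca
Gm13151, chr4:146701643-146701692, both marks: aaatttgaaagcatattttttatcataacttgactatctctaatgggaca
The pair carried both marks at a single copy.
Gm13225, chr4:145112076-145112125, neither mark: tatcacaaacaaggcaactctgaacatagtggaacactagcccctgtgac
Gm13154, chr4:146940549-146940598, both marks: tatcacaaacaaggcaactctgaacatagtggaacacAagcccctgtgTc

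The Gm13225 sequence of the first set had 1 mismatch to the other copies, and the pair differed by 2 mismatches over the 50 bases and lay in different genes of the cluster.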

How the data were processed

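ChIP-seq for H3K9me3 and H3K36me3 was measured in WT and G34R mouse ES cells, with 1 library per group. The authors aligned reads of 50 bases to mm9 with Bowtie (version 1.0.0), kept reads with up to 5 alignments, removed PCR duplicates and counted reads in 200 bp bins in SeqMonk, scaled to the number of reads and matched in distribution. They retained genic bins above a high percentile of the mark in WT or G34R cells and merged neighbours with bedtools (version 2.20.1). No input control is named for these steps. Their text, which also gives a limit on extreme read counts, says that regions over 500 bp were left out after merging, whereas every listed region is at least 600 bp wide, so the limit was read here as a lower one. The deposited lists have 3 columns (chromosome, start and end) and no header, so their values are positions and carry no read values, cell type or depth. A percentile sets how many bins enter a list, and the loss of reads with many alignments lowers what copied sequence can show.

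Coordinates are 1-based on NCBIM37, the assembly of mm9, with the first base of a region at the start of a 200 bp bin. Genes, exons and coding sequence came from GENCODE vM1 of the same assembly, and present symbols from RefSeq, whose table is of another assembly and was used for names only. A gene carried a mark from 1 bp of overlap. A finger was a match of the C2H2 pattern in translated coding sequence, and a zinc finger gene had at least 3. Copies were counted over all sequences of the assembly for the central 50 bases of every genic bin of the window, every marked bin of zinc finger genes elsewhere, 1 in 10 of other listed bins and 1 in 50 of genic bins elsewhere. Members were searched against the window with blastn (version 2.17.0). The remaining steps used Python 3.11.15, NumPy 2.4.6 and pandas 2.3.3. Copy counts (300 queries) and shared bases (200 pairs of lists) were tested on simulated data, with 0 differences from direct counting.

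The comparisons are descriptions of the lists without a test, because bins and regions are not replicates. The comparison of WT with G34R cells was not made, since it needs values per cell type. The members and lists were chosen with earlier results of these data known. The genes described in full were Zfp600, Gm13139, the 6 protein-coding genes with the most bases of each mark and of both, and the 3 noncoding genes with the most covered bases. The regions named were the 5 widest of H3K9me3, the 3 widest of H3K36me3, the 5 longest shared stretches, and the first and last of the window. The choice of printed sequences was made with their marks known. Alternatives were other rules for members, overlap, width, gene class, bin class and copies.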

Additional observations from a re-analysis of the deposited data

How the results depend on the processing

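The 15 measures above were recomputed under other settings. Of the 49 values this gave, 25 stayed within the counting interval of the reported value (for counts, within 1.5 times) and 24 moved. The interval treats neighbouring bins as independent, which they are not, so it serves as a yardstick and not as a test. Taking regions with any base in the window left 313 and 206 regions. Joining neighbours within 2 kb left 83 H3K9me3 and 65 H3K36me3 regions, and a width of at least 1 kb left 170 and 116. The share of H3K36me3 shared with H3K9me3 was 89.3% as regions that touch, 47.6% with reciprocal overlap, 82.4% from 1 kb of width, 89.6% after joining and 89.4% in bins with 1 copy. The share of H3K9me3 shared with H3K36me3 was 31.3% with reciprocal overlap, 45.8% from 1 kb of width, 51.5% after joining and 66.1% in bins with 1 copy. In bins with 1 copy, each mark was on 40% of finger-coding bins (only 5 bins), H3K9me3 was on 69.9% of intron bins and H3K36me3 on 52.7%. With exact copies, 56.9% of H3K9me3 bins, 49.6% of H3K36me3 bins, 48.2% of bins with both and 80.9% of bins with neither were copied. With more than 5 copies required, these shares were 44.3%, 38.8%, 37.4% and 69.1%. In each of these copy settings bins with neither mark remained the most copied and bins with both the least. Reads with more than 5 alignments were dropped before the lists were made, so these settings cannot separate this order from the alignment. For these moves the cause was not tested, beyond the fewer regions or bins that each setting holds by construction. In exons alone, 15 zinc finger genes had H3K9me3 and 13 had both marks, and from 8 fingers all 10 genes had both. No paired analysis was possible because each list pools the cell types and has no replicate, and for the same reason no replicate could be left out and the planned ratio of WT and G34R cells was not run. The depth is unknown, so that a bin outside a list cannot be read as free of the mark.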
